A study of Mus musculus with 4 samples.

Results

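The 10 genes described here encode cell surface adhesion molecules: 9 of the immunoglobulin superfamily (Ncam1, L1cam, Nrcam, Chl1, Alcam, Mcam, Icam1, Icam2 and Vcam1) and Epcam, which has another fold. Members were all probe sets on the array whose platform annotation gives 1 of these symbols, chosen by gene name with earlier results of these data known, so that shares of called members are a description. That gave 30 probe sets of 45037 tested, for 10 genes of 18193. Affymetrix 3' expression arrays were hybridised with RNA of sorted basal cells of mouse tail epidermis, 2 for Sox9cKO and 2 for SmoM2. Sox9cKO cells carried K14CreER, SmoM2 and a conditional deletion of Sox9 (K14CreER:SmoM2:Sox9cKO), and SmoM2 cells carried K14CreER and SmoM2 with Sox9 intact (K14CreER:SmoM2). Both groups therefore express SmoM2, an active form of the Hedgehog transducer Smoothened, and normal epidermis is not among the arrays. K14CreER is a Cre recombinase that tamoxifen switches on in keratin 14 positive keratinocytes, the cells in which the deletion takes place. All mice received 2.5 mg of tamoxifen daily over 10 days, and cells were taken 9 weeks after the first dose by their surface integrin alpha 6 and lack of CD34. Neither the ages of the mice nor the number of animals behind an array was stated. P-values therefore cover only the spread between these 4 samples. The 2 arrays of each group differed in Y-linked signal, as given below, so they did not hold the same RNA. How much of the spread lies between animals is not known.

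Immunoglobulin-type adhesion molecules hold cells together by binding a copy of themselves or a partner on the neighbouring cell. Ncam1 binds itself, and its adhesion is loosened when the enzymes St8sia2 and St8sia4 add polysialic acid to it. L1cam, Nrcam and Chl1 form the L1 family, which links the membrane to ankyrins and pairs with neuropilins, and is best known for axon growth. Alcam binds itself and Cd6, Mcam binds laminins with Lama4, Icam1 and Icam2 are ligands of leukocyte integrins, and Vcam1 is the ligand of integrins with Itga4. Epcam is an adhesion and signalling protein of epithelia that also marks Langerhans cells and, in human skin, the hair germ.

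Promoter sequences are shown for the called members with an entry in the RefSeq promoter table (GRCm38.p6), because these are the members whose expression changed, 4 lower and 1 higher. The table held windows for 7 of the 10 members, and Ncam1, Icam2 and Vcam1 are not shown. Each stretch is the 250 bases before the annotated start site, read 5′ to 3′ on the gene's strand. They lie at chr16:52453082-52453331 (- strand) for Alcam, chr6:103510626-103510875 (+ strand) for Chl1, chr17:87635729-87635978 (+ strand) for Epcam, chr9:44134408-44134657 (+ strand) for Mcam and chr12:44328635-44328884 (+ strand) for Nrcam, in GRCm38.p6. Capitals mark matches to any of the 5 motifs searched.
Alcam: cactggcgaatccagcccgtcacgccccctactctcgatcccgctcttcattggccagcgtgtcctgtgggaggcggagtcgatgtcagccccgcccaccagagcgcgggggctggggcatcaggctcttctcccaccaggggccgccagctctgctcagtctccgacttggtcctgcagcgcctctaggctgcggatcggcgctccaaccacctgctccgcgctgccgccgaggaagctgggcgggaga
Chl1: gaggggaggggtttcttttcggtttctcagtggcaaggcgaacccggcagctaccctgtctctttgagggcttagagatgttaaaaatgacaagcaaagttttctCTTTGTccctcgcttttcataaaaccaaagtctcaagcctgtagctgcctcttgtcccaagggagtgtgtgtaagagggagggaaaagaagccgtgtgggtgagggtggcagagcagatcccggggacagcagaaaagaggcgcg
Epcam: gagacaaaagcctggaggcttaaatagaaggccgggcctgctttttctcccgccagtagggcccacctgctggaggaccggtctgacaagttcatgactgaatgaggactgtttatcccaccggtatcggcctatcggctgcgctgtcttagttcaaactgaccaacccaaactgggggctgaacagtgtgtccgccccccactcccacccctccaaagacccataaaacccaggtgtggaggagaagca
Mcam: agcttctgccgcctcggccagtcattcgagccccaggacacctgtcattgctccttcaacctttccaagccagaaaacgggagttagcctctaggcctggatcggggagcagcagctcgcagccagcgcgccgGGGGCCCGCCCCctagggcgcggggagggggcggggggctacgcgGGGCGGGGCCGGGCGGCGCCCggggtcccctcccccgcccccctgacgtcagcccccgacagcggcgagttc
Nrcam: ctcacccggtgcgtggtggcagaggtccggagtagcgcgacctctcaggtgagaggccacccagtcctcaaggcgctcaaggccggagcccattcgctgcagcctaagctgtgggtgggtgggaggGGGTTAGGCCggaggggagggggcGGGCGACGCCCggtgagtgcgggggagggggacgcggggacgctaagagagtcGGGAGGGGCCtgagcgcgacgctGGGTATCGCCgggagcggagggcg

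The motifs were searched on both strands of the whole window, from 250 bases before to 50 bases after the start. They were ACAATG and ACAAAG for the Sox core, GACCACCCA for Gli, GGAANTTCC for NF-kB, and a looser NF-kB motif that asks for 3 G and 2 C around 5 free letters, whose matches can overlap each other. ACAAAG matched in 1 of the 8 member windows, that of Chl1, where it stands on the opposite strand, against 18.7% of all 32851 windows. ACAATG and GACCACCCA matched in none of the 8, against 12.6% and 0.253% of all windows. The looser NF-kB motif matched in 5 of the 8, those of Icam1, Mcam and Nrcam and both of L1cam, against 50.8% of all windows. The 2 L1cam windows overlap and share that match. GGAANTTCC matched in 1 of the 8, that of Icam1, against 0.928% of all windows. The base composition ran from 52.4% G and C in the Chl1 stretch and 56.4% in that of Epcam, both with 8 CpG sites, to 69.2% in Alcam, 72.4% in Nrcam and 73.6% in Mcam, with 22 to 25 CpG sites. The stretch of Nrcam, which rose, lay between those of genes that fell in this respect. Over all windows, which also hold the 50 bases after the start, the medians were 52.7% G and C and 7 CpG sites. A match describes letters only and no binding was measured.

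Log2 signals had medians of 5.45 and 5.47 on the Sox9cKO arrays and 5.47 and 5.46 on the SmoM2 arrays. Of the 3 Sox9 probe sets, 1 fell 14.9-fold, with log2 signals of 6.75 and 5.70 in Sox9cKO against 10.21 and 10.02 in SmoM2 (adjusted p = 0.00171), and the other 2 did not pass (adjusted p = 0.148 and 0.309). The keratinocyte markers Krt5, Trp63 and Cdh1 were at 13.20 and 13.40, 12.40 and 12.66, and 11.77 and 11.96 in Sox9cKO, against 13.20 and 13.41, 12.21 and 12.62, and 11.75 and 12.35 in SmoM2, and 0 of 9 keratinocyte markers were called by limma over genes (4 at an unadjusted p under 0.05, all lower). Those 4 were Krt14 (log2 change -0.41), the sort marker Itga6 (-0.45), Itgb4 (-0.69, adjusted p = 0.0506) and Col17a1 (-0.87), in the direction of Epcam, Alcam and Ncam1, and their part in the members' changes was not tested. The share of all genes at that unadjusted cutoff was not counted, for these markers or for the lists below. It is at least the 6.19% of genes called by limma. Sorted fractions are bulk samples, so fewer cells of a type and less RNA per cell cannot be told apart. The Y-linked genes Eif2s3y, Kdm5d and Uty lay between 3.23 and 3.62 on Sox9cKO replicate 2 and SmoM2 replicate 1. They lay between 6.74 and 9.48 on Sox9cKO replicate 1 and SmoM2 replicate 2. A transcript that is not there thus reads about 3.23 to 3.62, and Y-linked signal was present in 1 replicate per genotype. Xist, the X-linked transcript of female cells, read 10.92 and 11.97 in Sox9cKO and 11.76 and 8.11 in SmoM2. Xist was therefore far above the absent level on all 4 arrays, also where Y-linked signal was present. Whether such arrays hold RNA of both sexes, and so of several animals, was not tested.

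Signal in Sox9cKO was lower than in SmoM2 for Ncam1, Epcam, Alcam, Mcam and Chl1 and higher for Nrcam and Icam2, while L1cam, Icam1 and Vcam1 did not pass the test. Of the 30 probe sets, 10 fell and 3 rose at an adjusted p under 0.05 (limma over all 45037 probe sets), where 3.82% of all probe sets were called, 2.34% lower and 1.48% higher. With 1 probe set a gene, 5 of the 10 genes fell and 2 rose, against 6.19% of genes called, 3.53% lower and 2.66% higher. The median log2 change of the 30 probe sets was -0.34, against 0.01 over all probe sets, and the median absolute change was 0.86, against 0.15. By their mean over the 4 arrays 17 of the 30 lay at or above the median of all probe sets. Of these 17, 12 were called, 9 lower and 3 higher, against 5.99% of all probe sets that bright. Arrays of the groups did not overlap for 25 of the 30 probe sets (83.3%), against 44.4% of all. Without SmoM2 replicate 1, 4 probe sets fell and 1 rose, and without SmoM2 replicate 2, 4 fell and 3 rose.

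**Figure D1:**
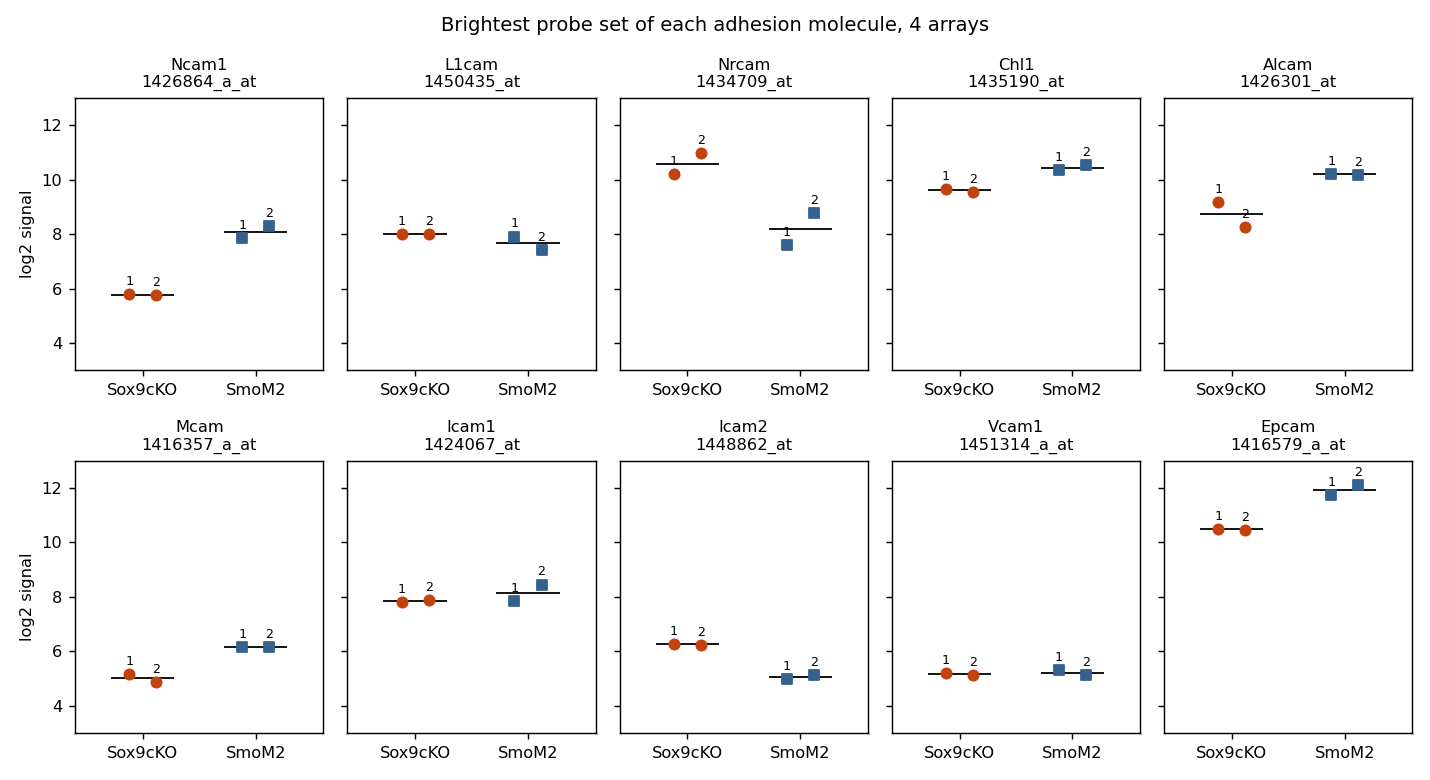
Log2 signal of the brightest probe set of each of the 10 members on the Sox9cKO arrays (circles) and SmoM2 arrays (squares). Numbers are the replicates and lines the group means. Ncam1, Chl1, Alcam, Mcam and Epcam lie lower and Nrcam and Icam2 higher in Sox9cKO, with no overlap, and Icam1 and Vcam1 overlap.

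Ncam1, the neural cell adhesion molecule, held the probe set with the largest change of the 30, although averaged over its 7 probe sets the gene changed by -1.12. Probe set 1426865_a_at read 4.66 and 4.55 in Sox9cKO, against 7.74 and 8.25 in SmoM2. Both SmoM2 arrays lay at least 3.09 log2 units above both Sox9cKO arrays. The change was -3.39 (SE 0.19, adjusted p = 0.00065), a 10.5-fold difference. Its Sox9cKO signals lay only a little above the lower quartile of all probe sets, so the fold may not be exact. The brightest probe set of the gene, 1426864_a_at, read 5.79 and 5.76 in Sox9cKO and 7.87 and 8.29 in SmoM2, which is 4.93-fold lower (log2 change -2.30, SE 0.18, adjusted p = 0.00139). A dimmer one, 1439556_at, read 3.44 and 3.65 in Sox9cKO, at about the level of absent Y-linked transcripts, against 4.84 and 5.41 in SmoM2 (log2 change -1.57, SE 0.21, adjusted p = 0.0099), so its fold is not exact. All 3 were called under every alternative run on them.

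The other 4 probe sets of Ncam1 did not pass. Probe set 1450437_a_at was at 4.57 and 4.60 in Sox9cKO against 4.97 and 5.22 in SmoM2 (log2 change -0.51, 95% interval -0.87 to -0.15). The remaining 3 stayed within 1 log2 unit of the absent level on every array, with changes of -0.38, 0.18 and 0.13. No source used here names the Ncam1 isoforms that each probe set reads, so a fall shared by all isoforms and a fall of some cannot be told apart.

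Epcam fell 2.69-fold at its brightest probe set. Probe set 1416579_a_at read 10.50 and 10.46 in Sox9cKO, against 11.73 and 12.09 in SmoM2. The groups were 1.23 log2 units apart at their nearest arrays, and the change was -1.43 (SE 0.17, adjusted p = 0.00561). It kept its call with each array left out, at changes between -1.61 and -1.25. The second probe set, 1447899_x_at, read 6.91 and 7.16 in Sox9cKO and 7.57 and 7.56 in SmoM2, also without overlap, but its change of -0.53 did not pass (adjusted p = 0.134). The ending _x_at marks probes that may also bind other transcripts.

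Alcam, the activated leukocyte cell adhesion molecule, fell at 4 of its 5 probe sets. At the brightest, 1426301_at, the signals were 9.18 and 8.26 in Sox9cKO and 10.21 and 10.18 in SmoM2, a 2.80-fold difference (log2 change -1.48, SE 0.28, adjusted p = 0.0362). The Sox9cKO replicates differed from each other, with replicate 2 lower than replicate 1 by 0.74 to 0.92 on the log2 scale at the 4 called probe sets, while the SmoM2 replicates lay within 0.16. Probe set 1437466_at read 8.25 and 7.51 in Sox9cKO against 9.51 and 9.35 in SmoM2 (log2 change -1.55, adjusted p = 0.0182). Probe set 1426300_at read 8.54 and 7.64 in Sox9cKO against 9.64 and 9.62 in SmoM2 (log2 change -1.54, adjusted p = 0.0295). Probe set 1437467_at read 8.70 and 7.90 in Sox9cKO against 9.71 and 9.85 in SmoM2 (log2 change -1.48, adjusted p = 0.0266). These 4 changes lie within 0.07 of each other. The fifth, 1443086_at, was dimmer, at 4.92 and 4.58 in Sox9cKO against 5.79 and 5.45 in SmoM2, and missed the threshold (log2 change -0.87, adjusted p = 0.0552, or 0.0401 with an intensity trend). All 4 calls were lost without SmoM2 replicate 1 (adjusted p between 0.0876 and 0.136) and without SmoM2 replicate 2 (between 0.0652 and 0.127), where the changes ran from -1.63 to -1.41.

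Mcam, an adhesion molecule first known from melanoma and found on vessels, was read by 1 probe set. It had 5.18 and 4.86 in Sox9cKO, against 6.14 and 6.17 in SmoM2. The Sox9cKO arrays were both lower, and the 2.20-fold difference passed (log2 change -1.14, SE 0.16, adjusted p = 0.012). Its Sox9cKO signals lay below the array medians, so the fold may not be exact. The adjusted p was 0.0543 without SmoM2 replicate 1, 0.0604 without SmoM2 replicate 2 and 0.0554 without Sox9cKO replicate 2. Lama4, the laminin chain it binds, fell as well, as given below.

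**Figure D2:**
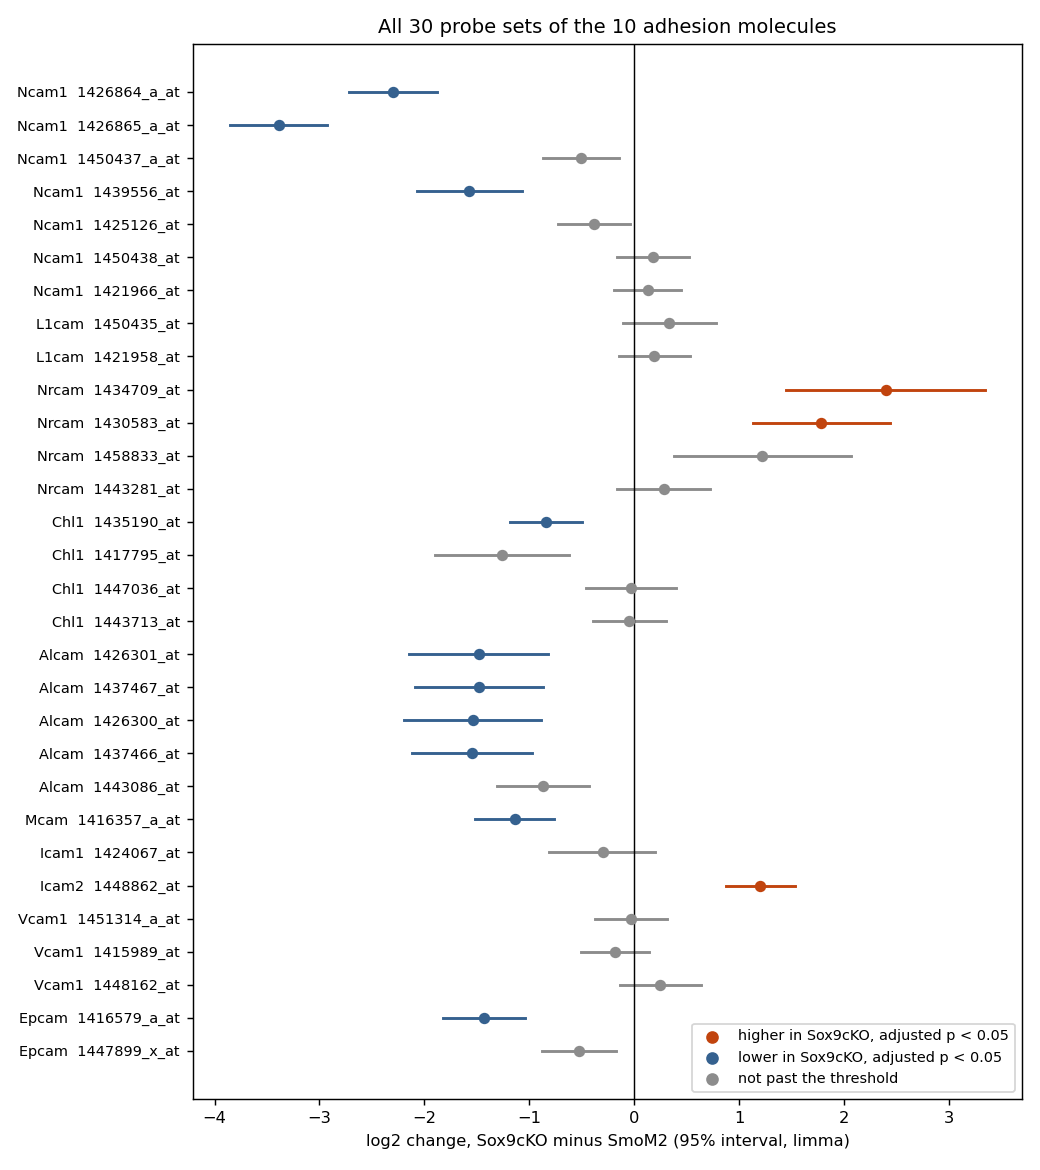
Log2 change, Sox9cKO minus SmoM2, of all 30 probe sets with its 95% interval from limma, grouped by gene. Called probe sets are blue where lower in Sox9cKO and orange where higher. The 5 genes with calls to the left and the 2 with calls to the right are separate genes, and the 17 grey probe sets did not pass.

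The L1 family split, with Nrcam higher, Chl1 lower and L1cam not past the threshold. Nrcam, the neuronal cell adhesion molecule, read 10.20 and 10.97 in Sox9cKO at its brightest probe set, 1434709_at, against 7.60 and 8.78 in SmoM2. The groups did not overlap, although the SmoM2 replicates lay 1.17 apart, and the difference was 5.27-fold (log2 change 2.40, SE 0.40, adjusted p = 0.0232). Probe set 1430583_at read 7.49 and 8.24 in Sox9cKO against 5.83 and 6.34 in SmoM2 (log2 change 1.78, SE 0.28, adjusted p = 0.0175). Probe set 1458833_at read 6.02 and 7.15 in Sox9cKO against 5.11 and 5.61 in SmoM2, again without overlap, and did not pass (log2 change 1.22, adjusted p = 0.144, or 0.0201 without Sox9cKO replicate 1). The dimmest, 1443281_at, overlapped between the groups at 4.41 and 4.77 in Sox9cKO against 4.15 and 4.47 in SmoM2. In both groups and at all 4 probe sets replicate 2 was higher than replicate 1. The call of 1434709_at was lost under a robust prior with intensity trend (adjusted p = 0.115), without SmoM2 replicate 1 (log2 change 1.81, adjusted p = 0.0513) and without Sox9cKO replicate 2 (2.01, adjusted p = 0.0889), and its change was 2.98 without SmoM2 replicate 2. That of 1430583_at was lost without SmoM2 replicate 1 (1.53, adjusted p = 0.0794).

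Chl1, the close homologue of L1, was 9.66 and 9.56 in Sox9cKO at probe set 1435190_at, against 10.37 and 10.52 in SmoM2. Both Sox9cKO arrays were lower, and the 1.79-fold difference passed (log2 change -0.84, SE 0.14, adjusted p = 0.025). It did not pass with any 1 of the 4 arrays left out (adjusted p between 0.068 and 0.119, changes between -0.92 and -0.77). Probe set 1417795_at read 7.09 and 6.24 in Sox9cKO against 8.04 and 7.82 in SmoM2, a larger change of -1.26 that missed the threshold (adjusted p = 0.056) and passed with an intensity trend (0.0386) and without Sox9cKO replicate 1 (0.0116). The other 2 Chl1 probe sets were near the absent level in both groups.

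L1cam itself, an X-linked gene, read 7.99 and 8.01 in Sox9cKO, against 7.91 and 7.42 in SmoM2, at its brightest probe set. The Sox9cKO arrays were higher by as little as 0.08, and the change of 0.33 had a 95% interval of -0.11 to 0.78 (adjusted p = 0.502). The second L1cam probe set stayed near the absent level.

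**Figure D3:**
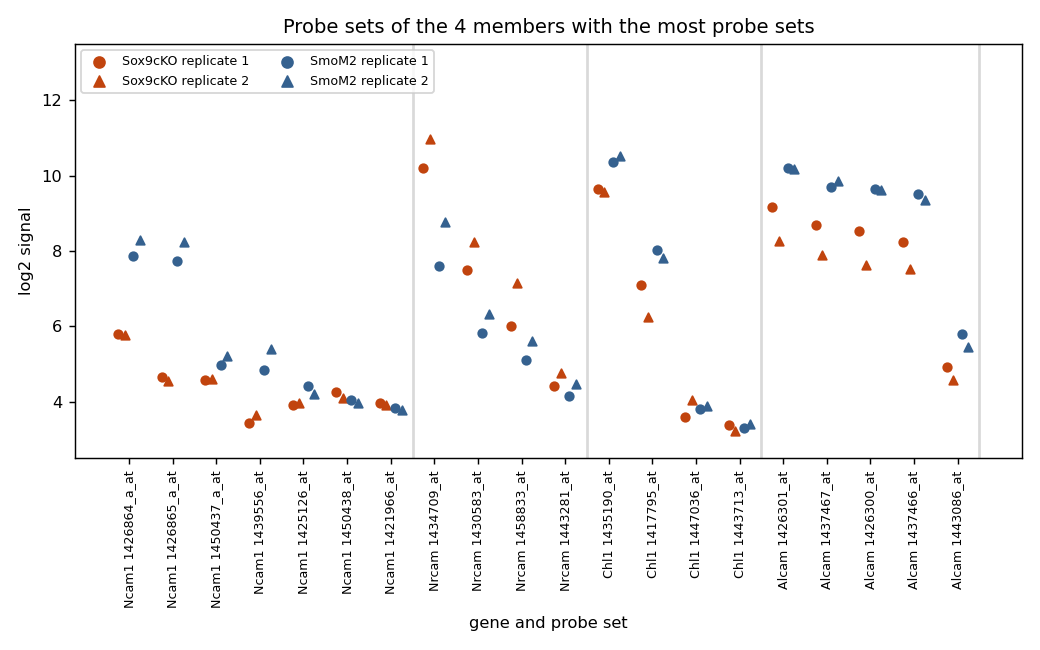
Log2 signal of every probe set of Ncam1, Nrcam, Chl1 and Alcam on each array, with Sox9cKO in orange left of SmoM2 in blue (circles replicate 1, triangles replicate 2). Sox9cKO replicate 2 lies lowest at all 5 Alcam probe sets and highest at all 4 Nrcam probe sets, and of the dim probe sets of Ncam1, 1439556_at is lower in Sox9cKO while the last 3 differ by 0.38 or less in size.

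Among the ligands of leukocyte integrins, Icam2 rose and Icam1 and Vcam1 did not pass. Icam2 read 6.27 and 6.24 in Sox9cKO, against 4.99 and 5.12 in SmoM2. The replicates of each group lay within 0.13, and the 2.30-fold difference (log2 change 1.20, SE 0.14, adjusted p = 0.00561) was called under every alternative run on it. Its SmoM2 signals lay below the array medians, so the fold may not be exact. Icam1 read 7.80 and 7.88 in Sox9cKO, against 7.84 and 8.45 in SmoM2. The groups overlapped, and the change of -0.30 had a 95% interval of -0.81 to 0.20 (adjusted p = 0.611). Vcam1 was dim on all arrays, between 3.64 and 5.21 in Sox9cKO and between 3.52 and 5.30 in SmoM2 over its 3 probe sets. The brightest read 5.21 and 5.14 in Sox9cKO against 5.30 and 5.11 in SmoM2, with an interval of -0.37 to 0.31, and the other 2 changed by -0.18 and 0.25 (adjusted p = 0.641 and 0.595).

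**Figure D4:**
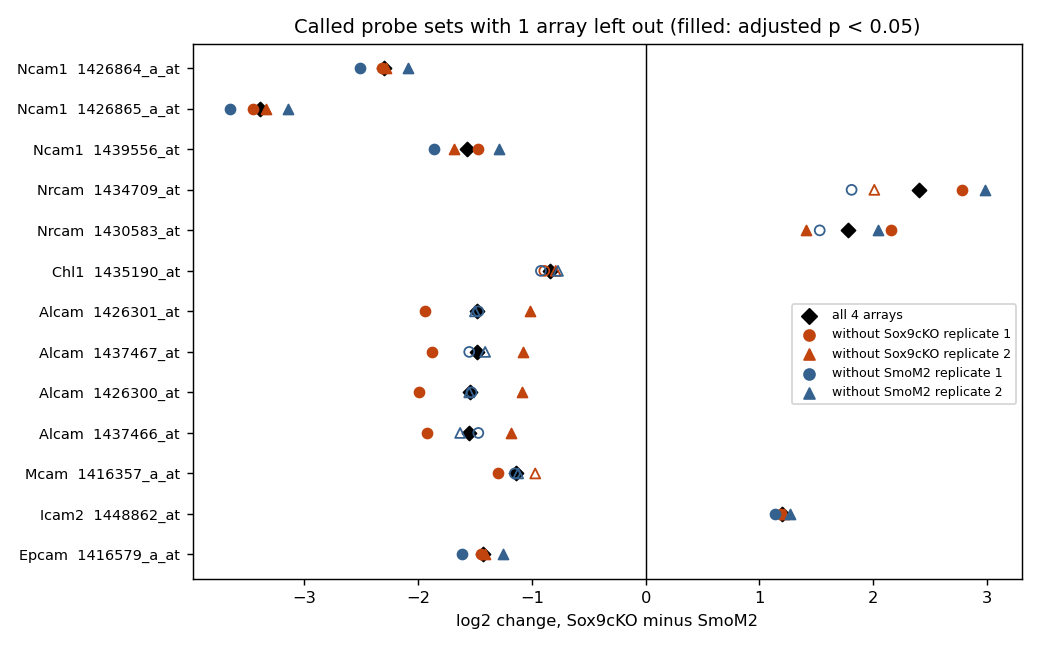
Log2 change, Sox9cKO minus SmoM2, of the 13 called probe sets with all 4 arrays (diamonds) and with 1 array left out, orange for a Sox9cKO array and blue for a SmoM2 array. Filled symbols passed at adjusted p under 0.05 and open ones did not. Ncam1, Epcam and Icam2 stay filled, and every change keeps its sign.

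Icam2 and Mcam are also known from endothelium, Epcam from Langerhans cells, Ncam1 from Merkel and Schwann cells and Alcam from leukocytes, so markers of these cells were read on the same arrays. Counts of called markers stand beside the 6.19% of all genes called. Of 9 endothelial markers 0 were called by limma over genes, 1 had an unadjusted p under 0.05, and their mean log2 signal was 4.75 and 4.80 in Sox9cKO and 4.67 and 4.75 in SmoM2. That 1 was Egfl7, at 7.45 and 7.50 in Sox9cKO against 6.70 and 7.08 in SmoM2 (log2 change 0.59, adjusted p = 0.0983), in the direction of Icam2. The defining genes Cdh5 and Pecam1 were dim, at 4.22 and 3.98, and 4.60 and 4.68 in Sox9cKO, against 4.17 and 3.95, and 4.58 and 4.72 in SmoM2. Of 10 Langerhans and myeloid markers 1 rose, H2-Aa, an MHC class II gene, with 7.22 and 7.11 in Sox9cKO against 5.47 and 5.13 in SmoM2 (log2 change 1.87, adjusted p = 0.00102, or 0.96 when its 4 probe sets were averaged). The list averaged 5.71 and 5.72 in Sox9cKO and 5.53 and 5.27 in SmoM2, and 4 of its genes had an unadjusted p under 0.05, 3 higher and 1 lower. The 3 higher were H2-Aa, Cd207 and Cd74. Cd74 read 6.18 and 6.38 in Sox9cKO against 5.81 and 5.54 in SmoM2 (log2 change 0.61, adjusted p = 0.0758). The 1 lower was Cd68, a macrophage gene, at 5.40 and 5.37 in Sox9cKO against 5.84 and 6.01 in SmoM2 (log2 change -0.54, adjusted p = 0.0757). H2-Ab1, the partner chain of H2-Aa, changed by 0.09. Cd207, the Langerhans cell lectin, read 5.08 and 5.39 in Sox9cKO against 4.96 and 4.54 in SmoM2 (adjusted p = 0.236), and the pan-leukocyte gene Ptprc 3.86 and 4.07 in Sox9cKO against 4.01 and 3.57 in SmoM2.

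Of 9 Merkel cell markers 1 fell, the transcription factor Sox2, with 3.98 and 3.15 in Sox9cKO against 6.72 and 6.81 in SmoM2 (log2 change -3.20, adjusted p = 0.000831). The Sox9cKO signals lay around the absent level, so this change is not exact. The defining Merkel genes Krt20 and Atoh1 were dim in both groups, at 4.03 and 4.18, and 4.46 and 4.22 in Sox9cKO, against 4.18 and 4.04, and 4.54 and 4.27 in SmoM2. The Merkel list averaged 5.01 and 4.78 in Sox9cKO and 5.28 and 5.20 in SmoM2. Of its genes 2 had an unadjusted p under 0.05, both lower, Sox2 and Piezo2. Piezo2 read 5.56 and 5.71 in Sox9cKO against 6.24 and 5.87 in SmoM2 (log2 change -0.42, adjusted p = 0.251). Of 6 Schwann cell markers, 8 T cell markers and 9 melanocyte markers 0 were called by limma, and 0, 1 and 1 had an unadjusted p under 0.05. The mean log2 signals of these lists were 5.19 and 5.51, 4.93 and 5.08, and 5.89 and 6.14 in Sox9cKO. In SmoM2 they were 5.41 and 5.48, 4.98 and 5.03, and 5.86 and 5.68. The T cell gene was Cd5, at 6.39 and 6.89 in Sox9cKO against 7.36 and 7.64 in SmoM2 (log2 change -0.86, adjusted p = 0.0531). The melanocyte gene was Dct (log2 change 0.59, adjusted p = 0.163). Of 10 fibroblast and pericyte markers Cspg4, a proteoglycan also known from human epidermal stem cells, fell (log2 change -1.32, adjusted p = 0.00516), and 3 had an unadjusted p under 0.05. The other two were Acta2, a smooth muscle actin, at 7.67 and 7.44 in Sox9cKO against 8.32 and 7.94 in SmoM2 (log2 change -0.57, adjusted p = 0.131), and Col1a2 (0.72, adjusted p = 0.273). The list averaged 5.45 and 5.44 in Sox9cKO and 5.60 and 5.49 in SmoM2, and Col1a1 and Col3a1 lay between 3.81 and 4.38 in Sox9cKO and between 3.71 and 4.51 in SmoM2. The part of Sox2, H2-Aa and these lists in the members' changes was not tested.

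Genes that work with the 10 members were read from 5 lists, with 1 probe set a gene and p-values adjusted over 18193 genes. Of 37 measured other immunoglobulin-type adhesion molecules, 2 rose and 1 fell, a share near the 6.19% of all genes, with a median log2 change of 0.03 against 0.02 for all genes. At an unadjusted p under 0.05 were 8 of them, 2 higher and 6 lower. Nectin3, a nectin of adherens junctions, read 7.60 and 7.98 in Sox9cKO against 4.95 and 4.38 in SmoM2. Both Sox9cKO arrays were far above both SmoM2 arrays, and the change was 3.13 (SE 0.22, adjusted p = 0.000529), or 1.34 when its 6 probe sets were averaged. Robo1, a Slit receptor, rose by 1.14 (SE 0.22, adjusted p = 0.025), which was lost without SmoM2 replicate 2 (adjusted p = 0.127), without Sox9cKO replicate 1 (0.0877) and when its probe sets were averaged (0.131). Igsf8, a tetraspanin partner, fell by 0.73 (SE 0.14, adjusted p = 0.0292), which was lost with any 1 array left out (adjusted p between 0.0506 and 0.159). Ncam2, the nearest relative of Ncam1, was near the absent level, at 3.53 and 3.89 in Sox9cKO against 3.76 and 4.03 in SmoM2.

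Of 24 binding partners 2 rose and 2 fell, against 6.19% of all genes called, with a median of 0.05. At an unadjusted p under 0.05 were 5 of them, 2 higher and 3 lower. Nrp2, a semaphorin receptor that pairs with L1 family molecules, read 9.85 and 9.86 in Sox9cKO against 7.84 and 8.10 in SmoM2 (log2 change 1.89, SE 0.15, adjusted p = 0.000769), and all 4 of its probe sets rose, while Nrp1 was at 4.37 and 4.93 in Sox9cKO and 4.72 and 4.47 in SmoM2. Gdnf, a growth factor that signals through Ncam1 in nerve cells, read 3.86 and 4.17 in Sox9cKO against 6.03 and 5.56 in SmoM2 (log2 change -1.78, SE 0.20, adjusted p = 0.0028), and its Sox9cKO signals lay near the absent level, so the change is not exact. Gfra1, the Gdnf receptor that teams up with Ncam1, went the other way, at 6.46 and 5.97 in Sox9cKO against 4.63 and 4.80 in SmoM2 (log2 change 1.50, SE 0.19, adjusted p = 0.00449). Its other 2 probe sets did not pass, with changes of 0.49 and 0.59. Lama4, the laminin chain bound by Mcam, read 4.55 and 4.45 in Sox9cKO against 6.91 and 6.13 in SmoM2 (log2 change -2.02, SE 0.24, adjusted p = 0.00397), or -1.14 when its 2 probe sets were averaged (adjusted p = 0.0557). Its Sox9cKO signals lay below the array medians, so the change may not be exact. The leukocyte integrins of the Icam genes were dim, with Itgal at 4.87 and 5.03, Itgam at 3.97 and 3.94 and Itgb2 at 3.99 and 4.25 in Sox9cKO, against 5.20 and 5.01, 3.72 and 3.55, and 4.06 and 3.88 in SmoM2. Itga4, the integrin chain of the Vcam1 receptor, changed by -0.66 (adjusted p = 0.112).

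Of 17 intracellular partners and modifying enzymes of Ncam1 and the L1 family, 4 had an unadjusted p under 0.05, all lower. The median of the list was -0.13. After adjustment 1 fell, against 6.19% of all genes called. That was St8sia2, which adds polysialic acid to Ncam1, with 6.13 and 6.23 in Sox9cKO against 6.89 and 6.97 in SmoM2 (log2 change -0.75, SE 0.13, adjusted p = 0.0209). Its second probe set fell as well (log2 change -1.76, adjusted p = 0.00558 over probe sets). The call of the first was lost with any 1 array left out (adjusted p between 0.0546 and 0.12). St8sia4, the other polysialic acid enzyme, was at 4.31 and 4.33 in Sox9cKO and 4.13 and 4.37 in SmoM2. Ank3, the ankyrin of epithelia that L1 family tails bind, was at 9.09 and 9.43 in Sox9cKO against 10.10 and 9.87 in SmoM2 and narrowly missed the threshold (log2 change -0.72, adjusted p = 0.0545).

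0 of 16 measured Epcam partners and proteases were called by limma over genes, and 1 had an unadjusted p under 0.05. That was Adam10, a membrane protease, at 11.59 and 11.39 in Sox9cKO against 11.06 and 11.09 in SmoM2 (log2 change 0.42, adjusted p = 0.168). The matriptase gene St14, whose product cuts Epcam, changed by -0.15, and Cldn7, a claudin that binds Epcam, by 0.14 at a dim probe set. The median of the list was 0.00. Of 24 NF-kB and cytokine response genes, to which Icam1 and Vcam1 are known to belong, 2 fell and none rose, against 6.19% of all genes called. Their median was -0.34. At an unadjusted p under 0.05 were 11 of them, 9 lower and 2 higher, the chemokine genes Ccl20 (log2 change 0.66) and Ccl2 (0.99). The share of all genes at that cutoff was not counted, so this count is a description. Cebpd, an acute-phase transcription factor, fell by 1.26 (SE 0.19, adjusted p = 0.00882, or 0.0659 without SmoM2 replicate 2). Nfkbiz, an inducible co-factor of NF-kB, fell by 0.95 (SE 0.19, adjusted p = 0.0282), which was lost without SmoM2 replicate 2, Sox9cKO replicate 1 or Sox9cKO replicate 2 (adjusted p = 0.131, 0.101 and 0.0552) and when its probe sets were averaged (0.111).

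**Figure D5:**
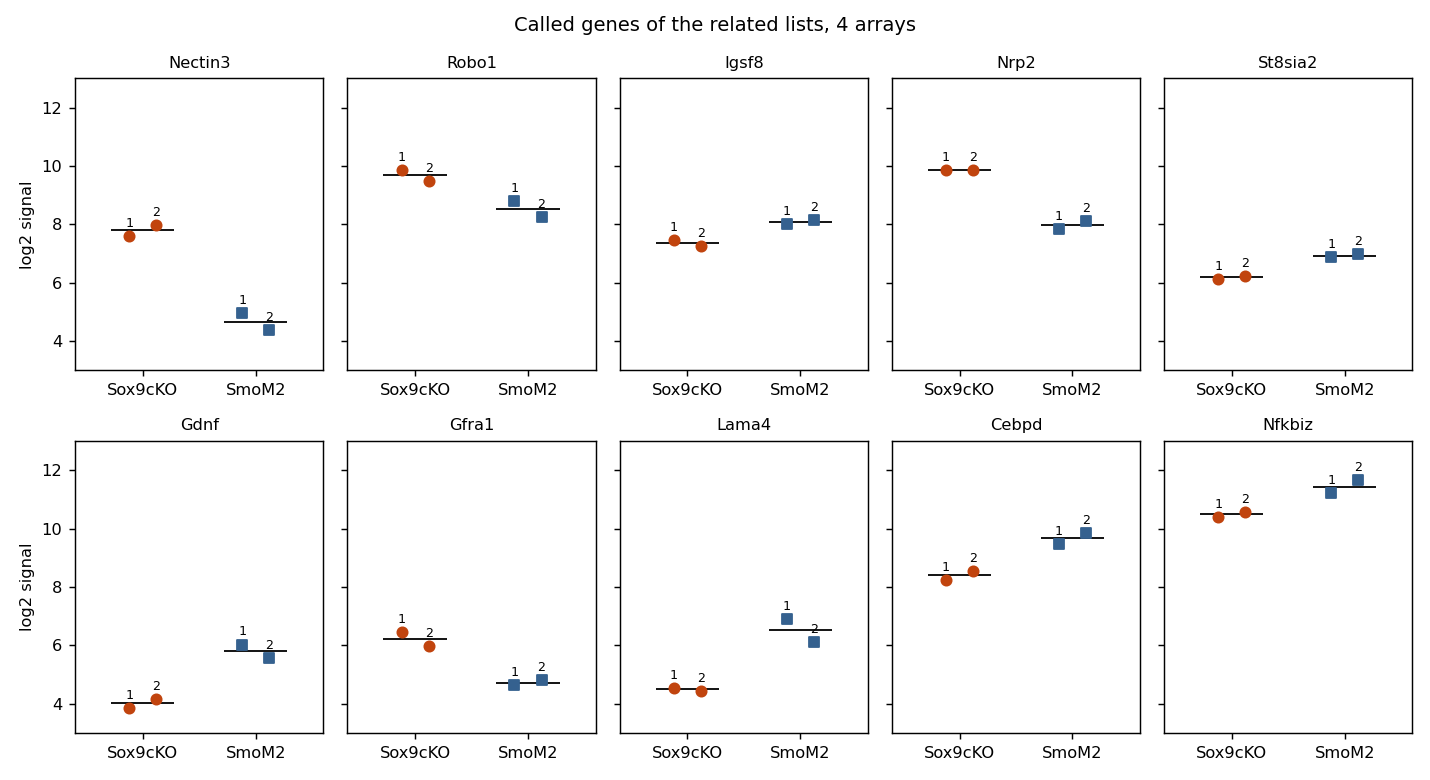
Log2 signal on each array of the 10 called genes of the related lists, Sox9cKO (circles) left of SmoM2 (squares), with group means as lines. Nectin3, Robo1, Nrp2 and Gfra1 lie higher and the other 6 lower in Sox9cKO, with no overlap between groups.

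The 5 genes whose pattern over the 4 arrays was most like that of Ncam1 probe set 1426865_a_at were Dlgap1, Aspn, Vit, Col4a4 and Prdm1, out of 18183 searched. Likeness was the root mean square distance between log2 values centred on each gene's mean, which was 0.04 for Dlgap1, 0.09 for Aspn, Vit and Col4a4, and 0.11 for Prdm1. Dlgap1, a scaffold gene of synapses, read 4.89 and 4.77 in Sox9cKO against 8.05 and 8.58 in SmoM2. Aspn, a small matrix proteoglycan, read 3.46 and 3.52 in Sox9cKO, at the absent level, against 6.49 and 7.17 in SmoM2. Col4a4, a basement membrane collagen chain, read 4.24 and 4.15 in Sox9cKO against 7.31 and 7.62 in SmoM2, and Vit, a matrix protein gene, 4.56 and 4.22 in Sox9cKO against 7.48 and 8.01 in SmoM2. Prdm1, a transcriptional repressor, read 5.95 and 5.57 in Sox9cKO against 8.78 and 9.30 in SmoM2. Likeness over 4 arrays rests mainly on the difference between the groups.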

How the data were processed

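Basal tail epidermal cells of 2 genotypes were measured on 4 arrays. The authors deposited 1 log2 signal per probe set and array, and no source used here gives the normalization behind them. The submitters' processing notes list R 2.14.0. The log2 scale was read from the values, which were used as deposited. The signals carry no detection calls and no depth, and their number limits the precision. Medians and quartiles were nearly equal between arrays, so a change shared by most genes would not be seen.

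Of 45101 probe sets, 64 controls were left out. The platform annotation named 1 gene for 34945 probe sets and several for 932, and 9160 were unnamed. Symbols were updated by entrez ID. Sox9cKO minus SmoM2 was tested with limma 3.58.1 in R 4.3.3 (lmFit and eBayes, no covariate, two-sided, 6.99 degrees of freedom with the prior) on all 45037 probe sets, with Benjamini-Hochberg adjustment and a threshold of 0.05. Related genes were tested with 1 probe set a gene, that of the highest mean over the 4 arrays (18193 genes). An exact permutation test of 2 against 2 arrays cannot go below p = 0.333. The members, lists, motifs and alternatives were chosen with earlier results of these data known. Each array value is given for the called member probe sets and the brightest of each member, and, of each list, for called genes and defining markers. Further genes were named for their known roles after their values were seen. The procedure, tested on simulated data with 45037 probe sets in a Sox9cKO against SmoM2 comparison, recovered 12% of the probe sets given a 2-fold change and 98% of the probe sets given a 4-fold change. It made 10 false calls among 116. Only 50 probe sets were changed at each fold size, whereas the real comparison called 1720. The adjustment is less strict when more probe sets are called, so the simulated shares do not carry over directly. Some changes under 2-fold were called, such as that of Chl1 1435190_at at 1.79-fold, and others may have been missed.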

Additional observations from a re-analysis of the deposited data

How the results depend on the processing

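Of the 13 called member probe sets, all kept their direction under every alternative run. The calls of Ncam1 (3 probe sets), Epcam and Icam2 held throughout. Centring on the median and quantile normalization changed no call among the 30. With 1 array left out, 1021 to 1142 probe sets and 534 to 900 genes were called, against 1720 and 1126. Member probe sets called lower then numbered 4 to 10 and higher 1 to 4, and over the 10 genes 2 to 5 and 1 to 2. Such fits take the spread of the single array from that of the other pair. An intensity trend with robust prior left 1 of 10 genes called higher, Icam2. Leaving out dim genes also left 1, Nrcam, since Icam2 and Mcam were then not tested. The replicate block called 3474 probe sets and 1919 genes, with 16 member probe sets, adding Nrcam 1458833_at, Chl1 1417795_at and Alcam 1443086_at, and 7 of the 10 genes. Deviations of arrays with the same number correlated at 0.12, and with 2 pairs a number does not establish a pairing. Signs turned only for uncalled probe sets: Vcam1 1451314_a_at (-0.12 to 0.06 with 1 array left out, and 0.01 for the average of the gene), Chl1 1447036_at (-0.25 to 0.20) and Chl1 1443713_at (-0.13 to 0.04). After averaging over probe sets, the gene Chl1 was at -0.54 (adjusted p = 0.055). Causes were not tested.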
